A study of Homo sapiens with 12 samples.

Results

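Osteopontin (SPP1), fibronectin (FN1) and 6 further genes for matrix proteins and matrix receptors (THBS1, TGFBI, CD44, ITGAV, ITGB3 and ITGA5) were followed in THP1 monocytes, giving 8 genes of the 58735 in the count table. SPP1 and FN1 were chosen by their shifts between the cultures of these same libraries, so their values are given as a description with no test. The other 6 were taken as matrix proteins and receptors of the same system, and the genome-wide test applies to them. All 8 genes passed the filter of at least 10 counts in total, as did 25873 genes of the table.

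THP1 is a human leukaemia monocytic cell line. Its cells were kept for 24 h in endothelial cell medium, either alone (mono-culture) or in the upper chamber of a transwell insert above human umbilical vein endothelial cells (ECs), and were then stimulated with lipopolysaccharide (LPS) at 100 ng/ml for 2 h. The ECs had been given the vehicle dimethylsulfoxide (control ECs), made senescent with etoposide (senECs), or made senescent with etoposide and afterwards treated with the green tea catechin epigallocatechin gallate (EGCG-treated senECs). RNA of the THP1 cells was sequenced in 3 libraries for each of the 4 cultures, numbered 1, 2 and 3 for the mono-culture and for control ECs and 1, 2 and 5 for the other two. Every library came from LPS-stimulated wild-type cells of this 1 line, and none is without LPS. Mono-culture and control EC libraries hold the number 3 where both senEC cultures hold the number 5, so what the numbers stand for and the presence of senECs cannot be told apart for these libraries. Etoposide-induced senescence is a drug model, and the ECs themselves were not sequenced here.

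Osteopontin is a secreted phosphoprotein that macrophages make in quantity, and it binds CD44 and integrins that recognise the Arg-Gly-Asp motif, ITGAV-ITGB3 among them. Fibronectin is a matrix glycoprotein whose main receptor on cells pairs ITGA5 with ITGB1. Thrombospondin-1 (THBS1) and TGFBI are secreted proteins tied to TGF-beta signalling, the first as an activator of the latent cytokine and the second as a product it induces.

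Totals ran from 15439836 to 22092600 counts per library, with a median of 18153784. Levels are given as CPM, counts scaled to a common library size, after TMM scaling (trimmed mean of M values, with factors from 0.912 to 1.04). Differences are log2 fold changes of edgeR's quasi-likelihood fit across all 12 libraries, with standard errors (SE). Called genes are those with a Benjamini-Hochberg adjusted p under 0.05 over all 25873 genes tested. No label says that libraries of a culture came from separate cultures, so p-values measure only the spread between these libraries. Replicate libraries differed by more than counting noise in every pair (chi-square per degree of freedom of 9.23 to 33.7). In bulk RNA, fewer cells that express a gene and less of its RNA per cell cannot be told apart.

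The promoters of the 4 genes whose levels separated cultures are printed to let these be read side by side. Each window holds 250 bases before and 50 bases from the RefSeq start on GRCh38.p14, read 5′ to 3′ on the gene's strand. Capitals mark matches, on either strand, to 6 motifs that were picked after the sequences were seen. For AP-1 the letters searched were TGANTCA. The cAMP response element (CRE) was searched as TGACGTCA. The CCAAT box was searched by the letters of its name. The letters GGGCGG stood for a GC box. Windows were also searched for TATAAA, the TATA box. The RUNX site was searched as AACCACA. The SPP1 window is chr4:87975464-87975763 (plus strand), FN1 chr2:215436019-215436318 (minus strand), ITGA5 chr12:54419217-54419516 (minus strand) and THBS1 chr15:39580829-39581128 (plus strand).
SPP1: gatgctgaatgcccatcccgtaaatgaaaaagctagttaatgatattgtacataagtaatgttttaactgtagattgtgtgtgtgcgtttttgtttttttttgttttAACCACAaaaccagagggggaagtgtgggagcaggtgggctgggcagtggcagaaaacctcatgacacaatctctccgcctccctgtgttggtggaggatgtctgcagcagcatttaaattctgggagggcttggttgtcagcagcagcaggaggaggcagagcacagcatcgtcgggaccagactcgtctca
FN1: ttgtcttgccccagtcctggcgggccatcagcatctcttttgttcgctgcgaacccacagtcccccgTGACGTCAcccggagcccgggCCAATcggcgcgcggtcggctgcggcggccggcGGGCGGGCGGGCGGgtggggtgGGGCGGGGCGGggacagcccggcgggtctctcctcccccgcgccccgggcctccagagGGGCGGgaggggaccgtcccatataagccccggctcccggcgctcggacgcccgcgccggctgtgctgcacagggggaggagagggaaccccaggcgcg
ITGA5: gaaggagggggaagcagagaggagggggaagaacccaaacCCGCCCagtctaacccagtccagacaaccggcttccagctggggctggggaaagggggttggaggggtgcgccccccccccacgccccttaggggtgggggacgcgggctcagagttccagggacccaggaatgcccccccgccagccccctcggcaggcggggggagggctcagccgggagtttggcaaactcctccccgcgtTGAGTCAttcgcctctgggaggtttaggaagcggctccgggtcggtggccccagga
THBS1: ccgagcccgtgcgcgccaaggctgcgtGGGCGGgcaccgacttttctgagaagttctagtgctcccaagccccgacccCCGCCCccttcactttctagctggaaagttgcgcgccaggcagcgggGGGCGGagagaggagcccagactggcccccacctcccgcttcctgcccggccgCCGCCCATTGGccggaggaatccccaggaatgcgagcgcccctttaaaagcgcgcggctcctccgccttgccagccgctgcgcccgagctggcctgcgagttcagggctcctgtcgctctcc
The FN1 window held 1 CRE match, 1 CCAAT box and 6 GC boxes, some of which overlap. ITGA5, the other gene that was higher with both senEC types, held neither a CRE nor a CCAAT box but 1 AP-1 match that ends on the start base, with 1 GC box. In the THBS1 window there were 4 GC boxes and 1 CCAAT box, the latter directly beside a GC box, and SPP1 held a single RUNX match. None of the 4 windows held TATAAA. Over 35116 promoter windows of the same length, 7.71% held the AP-1 letters, 1.85% the CRE, 34.6% a CCAAT box, 45.0% a GC box, 11.5% TATAAA and 4.27% the RUNX letters. Of the 8 genes, 7 had a window in the RefSeq table. A match is a description of letters, and no binding was measured.

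SPP1 lies on chromosome 4 (87975650 to 87983426, plus strand, GRCh38 with GENCODE release 29) and overlaps no other annotated gene. Its level was 5.66, 10.1 and 9.53 CPM in mono-culture libraries 1, 2 and 3, from 91 to 187 counts. With control ECs it was 3.17, 3.6 and 2.61 CPM, and with senECs 2.58, 2.66 and 2.90 CPM. In the co-culture with EGCG-treated senECs it was 5.54, 2.54 and 2.84 CPM. All 9 co-culture libraries were below all 3 mono-culture libraries, although EGCG-treated senEC library 1 was close to mono-culture library 1. The mono-culture mean was 8.42 ± 2.41 CPM (SD, n = 3), and the co-culture means were 3.13 ± 0.50 for control ECs, 2.71 ± 0.17 for senECs and 3.64 ± 1.65 for EGCG-treated senECs. The fitted level was thus 2.68-fold lower with control ECs than in mono-culture (log2 fold change -1.42, SE 0.28), 3.10-fold lower with senECs (-1.63, SE 0.29) and 2.32-fold lower with EGCG-treated senECs (-1.21, SE 0.28). Groups without overlap and lower than mono-culture were found for 6.51% of all genes tested in the control EC co-culture, 8.5% in that with senECs, 7.72% in that with EGCG-treated senECs and 1.64% in all 3. Since SPP1 was chosen on these values, nothing is read from its place among them. The 3 co-cultures overlapped in SPP1: senECs against control ECs gave -0.21 (SE 0.30) and EGCG-treated senECs against senECs 0.42 (SE 0.30), which became -0.0051 without EGCG-treated senEC library 1. Its lowest count was 40, so this transcript of macrophages was detected in every library yet rested on 40 to 187 counts.

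FN1 lies on chromosome 2 (215360440 to 215436172, minus strand) and overlaps no other annotated gene. In mono-culture its level was 20.0, 17.5 and 17.2 CPM, and with control ECs 19.5, 23.5 and 17.6 CPM. With senECs it was 29.4, 32.5 and 28.8 CPM, and with EGCG-treated senECs 25.3, 32.8 and 35.7 CPM. The levels fell into a lower set, made of mono-culture and control EC libraries, and a higher set made of both senEC cultures, with a gap between 23.5 and 25.3 CPM. Means were 18.2 ± 1.52, 20.2 ± 3.01, 30.2 ± 2.01 and 31.3 ± 5.40 CPM (SD, n = 3) in that order of cultures. The fitted level was 1.66-fold higher with senECs than in mono-culture (log2 fold change 0.73, SE 0.14) and 1.72-fold higher with EGCG-treated senECs (0.78, SE 0.14). Against control ECs it was 1.5-fold higher with senECs (0.58, SE 0.14) and 1.55-fold higher with EGCG-treated senECs (0.63, SE 0.14). Within either set the cultures overlapped: control ECs against mono-culture gave 0.15 (SE 0.14) and EGCG-treated senECs against senECs 0.05 (SE 0.14). Groups without overlap and higher were found for 8.18% of all genes with senECs against mono-culture, 6.4% with EGCG-treated senECs against mono-culture, 5.31% with senECs against control ECs and 4.04% with EGCG-treated senECs against control ECs. FN1 was selected on these shifts, and the 4 comparisons share libraries. Libraries 1 and 2, the numbers that all cultures share, fall in the same sets. This follows from the split over all 12 libraries and tests nothing. Counts of FN1 were between 312 and 667 per library.

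**Figure D1:**
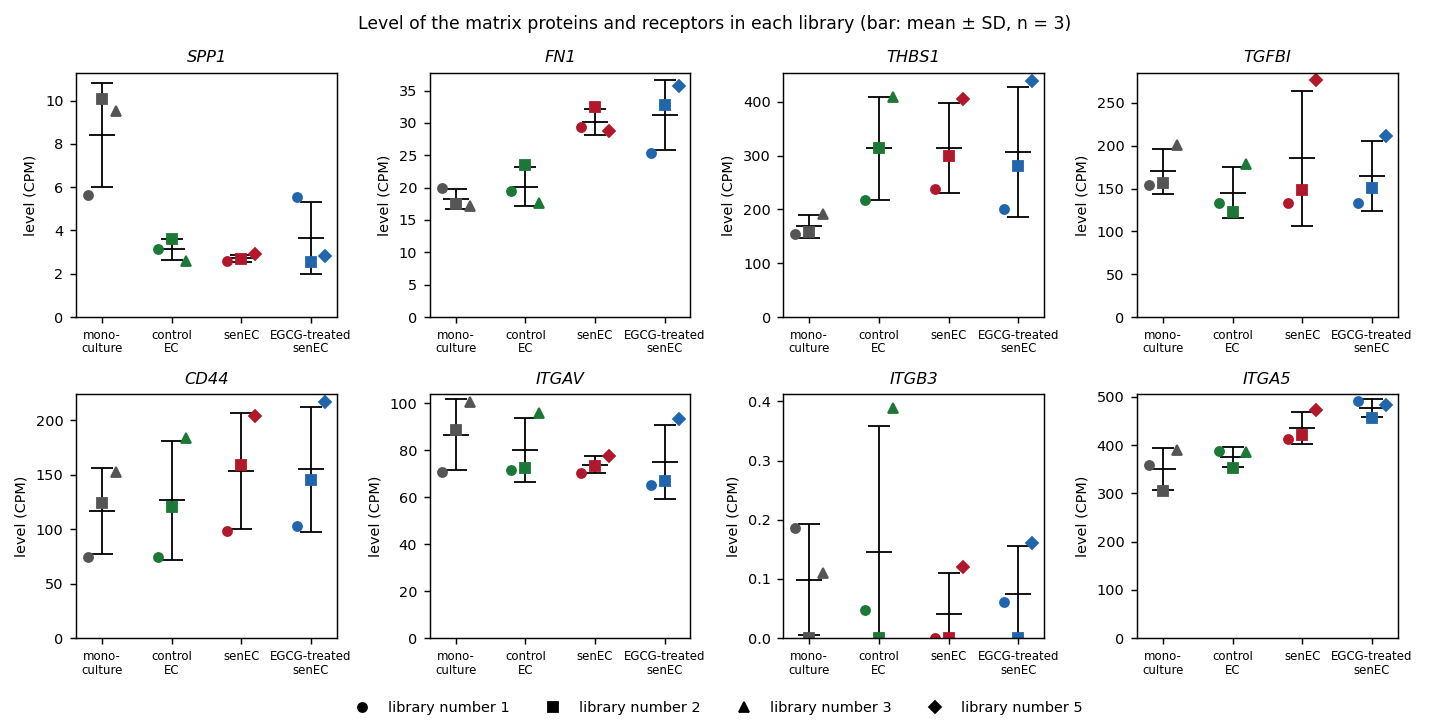
Level of each of the 8 genes in CPM (vertical axes from 0, a scale of its own for each gene) in the 12 libraries, grouped by culture on the horizontal axis; points are libraries, with the shape giving the library number, and bars give the mean ± SD of 3 libraries, cut at 0. SPP1 is highest in the 3 mono-culture libraries, THBS1 is lowest there, FN1 and ITGA5 are higher with both senEC types, and ITGB3 stays under 0.4 CPM.

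THBS1, the gene of the matricellular glycoprotein thrombospondin-1, lies on chromosome 15 (39581079 to 39599466, plus strand). It was at 155, 158 and 192 CPM in mono-culture and at 218, 314 and 408 CPM with control ECs. It was at 238, 300.0 and 404 CPM with senECs and, for EGCG-treated senECs, at 201, 280.1 and 439 CPM. All 9 co-culture libraries were above all 3 mono-culture libraries, while the co-cultures overlapped one another across their whole ranges. Means were 168 ± 20.7 CPM in mono-culture against 313 ± 95.3, 314 ± 84.1 and 307 ± 121 CPM (SD, n = 3) for the co-cultures in the order control EC, senEC, EGCG-treated senEC. The log2 fold change against mono-culture was 0.89 (SE 0.24), 0.90 (SE 0.24) and 0.86 (SE 0.24), or 1.86-, 1.86- and 1.82-fold. None of the 3 differences was called by edgeR's quasi-likelihood test over all genes, with adjusted p-values of 0.259, 0.136 and 0.202. Leaving out the library with the lowest co-culture level brought 2 of them under the threshold, since the adjusted p of edgeR was 0.0416 for senECs without senEC library 1 and 0.0386 for EGCG-treated senECs without library 1 of that culture. Over the alternatives, these adjusted p-values ran from 2.78e-17 to 0.834 with control ECs, 3.37e-12 to 0.621 with senECs and 8.44e-11 to 0.647 with EGCG-treated senECs. Groups without overlap and higher than mono-culture were found for 6.25% of genes with control ECs, and for 1.77% of genes in all 3 co-cultures. Between co-cultures THBS1 differed by 0.00 (SE 0.24; senECs against control ECs) and -0.03 (SE 0.24; EGCG-treated senECs against senECs). Its locus overlaps FSIP1 and AC037198.2 on the opposite strand and AC037198.1 within it, and the counting is not stated to use strand, so reads of these genes cannot be told apart there.

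TGFBI, a secreted matrix protein that binds integrins and collagens, lies on chromosome 5 (136028895 to 136063818, plus strand) and overlaps no other annotated gene. It was at 154, 156 and 200.4 CPM in mono-culture, 134, 123 and 179 CPM with control ECs, 133, 148 and 276 CPM with senECs and, for EGCG-treated senECs, 134, 150.5 and 211 CPM. All 4 cultures overlapped. The log2 fold changes against mono-culture were -0.23 (SE 0.22), 0.12 (SE 0.22) and -0.04 (SE 0.22), and that against control ECs was 0.35 (SE 0.22) with senECs, all within 2 SE of 0. The senEC value turned on 1 library: without senEC library 5, the one at 276 CPM, the difference from mono-culture was -0.28 and that from control ECs -0.05.

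ITGA5, the integrin subunit that pairs with ITGB1 to bind fibronectin, lies on chromosome 12 (54395261 to 54419460, minus strand). Its level was 359.5 CPM in mono-culture library 1, 304 in library 2 and 389.6 in library 3. With control ECs it was 389, 352 and 386 CPM, within that range. With senECs it was 412, 422 and 472 CPM, and with EGCG-treated senECs 492, 456 and 482 CPM. As with FN1, the 6 libraries of both senEC cultures were above the 6 libraries of mono-culture and control ECs, here with a gap between 389.6 and 412 CPM. This pattern was looked for in ITGA5 after its values were seen, and it held for 0.383% of all genes tested, FN1 included. The mean was 351 ± 43.2 CPM (SD, n = 3) for the mono-culture, 376 ± 20.6 for control EC, 435 ± 32.4 for senEC and 477 ± 19.0 for EGCG-treated senEC libraries. With EGCG-treated senECs the level was 1.36-fold that in mono-culture (log2 fold change 0.44, SE 0.10), with an edgeR adjusted p of 0.10 and an adjusted p of 0.00453 by DESeq2. Over all alternatives the adjusted p of this difference ran from 0.000122 to 0.543, and it was 0.0491 without senEC library 5, which is in neither group. With senECs it was 1.24-fold (0.31, SE 0.10), with an edgeR adjusted p of 0.273 and a range of 0.0105 to 0.776 over the alternatives. Against control ECs the log2 fold change was 0.21 (SE 0.10, edgeR adjusted p 0.728) with senECs and 0.34 (SE 0.10, edgeR adjusted p 0.979) with EGCG-treated senECs. Over the alternatives the lowest edgeR adjusted p was 0.230 with senECs and 0.0362 with EGCG-treated senECs. The latter came with library number as a block, 3 and 5 joined. The step from senECs to EGCG-treated senECs, 0.13 (SE 0.10), was within 2 SE of 0, and these groups overlapped. The same held for the step from mono-culture to control ECs, 0.10 (SE 0.10). Across the 12 libraries, FN1 and ITGA5 had a Pearson r of 0.72 on the log2(CPM + 2) scale. This is a description, since the libraries share their 4 cultures. AC079313.1 and AC079313.2 overlap ITGA5 on the opposite strand.

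ITGAV, the alpha subunit of several Arg-Gly-Asp-binding integrins, lies on chromosome 2 (186590065 to 186680901, plus strand). It was at 70.6, 88.7 and 100.4 CPM in mono-culture, 71.5, 72.5 and 95.8 CPM with control ECs, 70.3, 73.4 and 77.6 CPM with senECs and, for EGCG-treated senECs, 65.0, 66.9 and 93.2 CPM. The cultures overlapped in every comparison, and the highest library was 1.54 times the lowest, the narrowest range of the 7 genes with a level above 1 CPM. Against mono-culture the log2 fold changes were -0.12 (SE 0.15), -0.23 (SE 0.15) and -0.21 (SE 0.15). An antisense gene, AC017101.1, overlaps it.

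ITGB3, the beta subunit that completes the osteopontin-binding pair with ITGAV, was close to undetected. Its locus on chromosome 17 (47253846 to 47311816, plus strand), which other genes overlap, gathered 19 counts over the 12 libraries. It had 0 counts in 5 libraries and 7 in control EC library 3, the highest. In CPM the levels were 0.19, 0 and 0.11 in mono-culture, 0.048, 0 and 0.39 with control ECs, 0, 0 and 0.12 with senECs and, for EGCG-treated senECs, 0.061, 0 and 0.16. A count of 0 allows a level of up to 3 counts, or 0.132 to 0.191 CPM at these depths, counting error only. Most values were at or under that limit, so no fold change is given and a difference was not detectable at this depth.

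CD44, the hyaluronan receptor that also binds osteopontin, lies on chromosome 11 (35138870 to 35232402, plus strand). It was at 74.2, 124 and 152 CPM in mono-culture and at 74.9, 121 and 184 CPM with control ECs. It was at 98.2, 159 and 204 CPM with senECs and, for EGCG-treated senECs, at 103, 145 and 217 CPM. Within each culture the libraries differed by more than the culture means did, which were 117 ± 39.4, 126 ± 54.7, 154 ± 52.9 and 155 ± 57.5 CPM (SD, n = 3). The log2 fold change against mono-culture was 0.11 (SE 0.30) with control ECs, 0.39 (SE 0.31) with senECs and, for EGCG-treated senECs, 0.41 (SE 0.31), with overlap in each. The edgeR adjusted p was 0.991, 0.685 and 0.748, and over the alternatives it ran from 0.873 to 1, from 0.00161 to 0.980 and from 0.00157 to 0.982. Testing every gene with a count brought CD44 under the threshold with both senEC types. CD44-AS1 on the opposite strand and AL133330.1 overlap the gene.

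Among the 6 genes not chosen on values, edgeR called 0 in any of the 6 comparisons. In control ECs against mono-culture it called 0.143% of all genes (DESeq2 0.464%), in senECs against mono-culture 0.309% (DESeq2 1.34%) and in EGCG-treated senECs against mono-culture 0.213% (DESeq2 0.889%). At an unadjusted p under 0.05 there was 1 of the 6 with control ECs (THBS1) and 2 with each type of senEC (THBS1 and ITGA5), beside 1687 (6.52%), 2847 (11.0%) and 2220 (8.58%) of all genes. DESeq2 called 0, 0 and 1 of the 6, the last being ITGA5. The median log2 fold change of the 6 was 0.10, 0.22 and 0.18 in these comparisons, beside 0.01, -0.02 and 0.00 over all genes tested. The 6 medians include ITGB3, whose fitted value rests on a few counts.

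The question whether senECs act on these genes otherwise than control ECs, and whether EGCG treatment alters that, rests on the comparisons among co-cultures. In senECs against control ECs edgeR called 0.0% of all genes and 0 of the 6, with 1709 genes (6.61%) and 0 of the 6 at an unadjusted p under 0.05. In EGCG-treated senECs against senECs it called 0.0% and 0 of the 6, with 575 genes (2.22%) and 0 of the 6 at an unadjusted p under 0.05. In EGCG-treated senECs against control ECs it called 0.0% and 0 of the 6, with 1177 genes (4.55%) and 1 of the 6, ITGA5, at an unadjusted p under 0.05. DESeq2 also called 0 genes in each. In EGCG-treated senECs against senECs the log2 fold changes were -0.03 (SE 0.24) for THBS1, -0.17 (SE 0.22) for TGFBI, 0.01 (SE 0.30) for CD44, 0.03 (SE 0.15) for ITGAV and 0.13 (SE 0.10) for ITGA5. These SEs do not show the levels to be alike, as a difference of 0.3 in CD44 would lie within 1 SE.

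**Figure D2:**
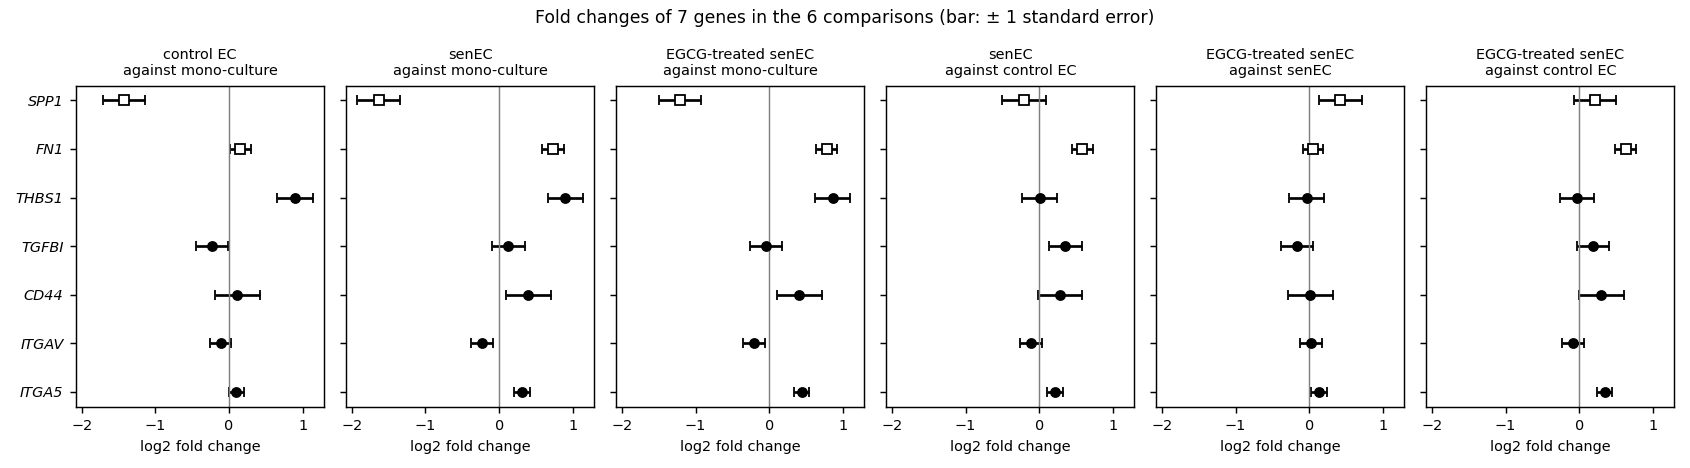
Fitted log2 fold change (horizontal axis) of 7 genes in the 6 comparisons, 1 panel each, with bars of ± 1 SE; open squares are SPP1 and FN1, which were chosen on these values, and filled circles the other genes. SPP1 lies at -1.21 to -1.63 in the 3 comparisons with mono-culture, THBS1 at 0.86 to 0.90 in the same panels, and FN1 at 0.58 to 0.78 wherever a senEC culture is set against mono-culture or control ECs; ITGB3 is not drawn.

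Some of the spread within cultures followed the library numbers. For THBS1, CD44 and ITGAV the library numbered 1 was the lowest and that numbered 3 or 5 the highest in all 4 cultures, as it was for 2.87% of the 14397 genes with a mean of at least 1 CPM. TGFBI was highest in number 3 or 5 in all 4 cultures, as were 6.7% of those genes, and lowest in number 1 in 3 of 4. SPP1, FN1 and ITGA5 kept no such order. The labels do not say what the numbers share, and their part in these levels was not tested. THBS1 and CD44 had an r of 0.77 over the 12 libraries, TGFBI and CD44 0.72, SPP1 and THBS1 -0.74 and SPP1 and FN1 -0.65, all as descriptions over libraries that share cultures and numbers.

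**Figure D3:**
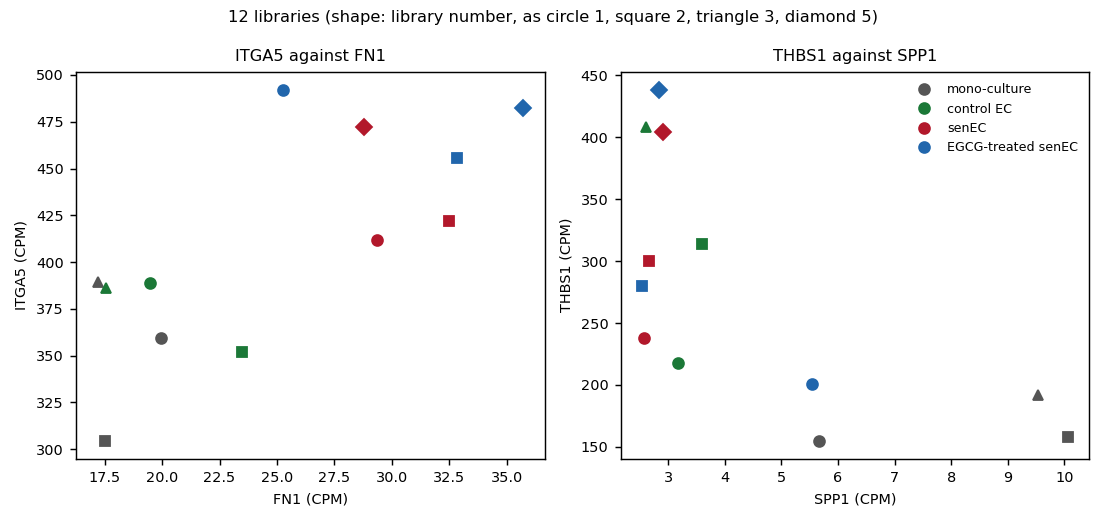
ITGA5 against FN1 (left) and THBS1 against SPP1 (right) in CPM, 1 point per library, with colour for the culture and shape for the library number; the axes do not start at 0. On the left the 6 libraries of both senEC cultures lie above and to the right of the other 6, and on the right the 3 mono-culture libraries lie below and to the right of the 9 co-culture libraries.

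Levels of different genes can be set side by side only per length, as FPKM, here the CPM divided by the exon length of the gene in kilobases (GENCODE). This length joins the exons of all transcripts of a gene. It can exceed that of the transcript made, and the level is then understated. It was 17315 bases for FN1 and 2321 for SPP1, so the order of these 2 is not read. On that scale the mean level over 12 libraries was 54.1 for ITGA5, 30.1 for THBS1, 21.3 for TGFBI, 13.8 for CD44 and 9.60 for ITGAV. SPP1 at 1.93 and FN1 at 1.44 were far lower, and ITGB3 was at 0.0204. The fibronectin receptor subunits ITGA5 and ITGB1 (22.5 FPKM) were thus both well detected in cells with little FN1 transcript of their own. Of the beta subunits that can pair with ITGAV, ITGB1 led, ITGB5 was at 1.35 FPKM, ITGB8 at 0.087, ITGB3 at 0.0204 and ITGB6 had no count.

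**Figure D4:**
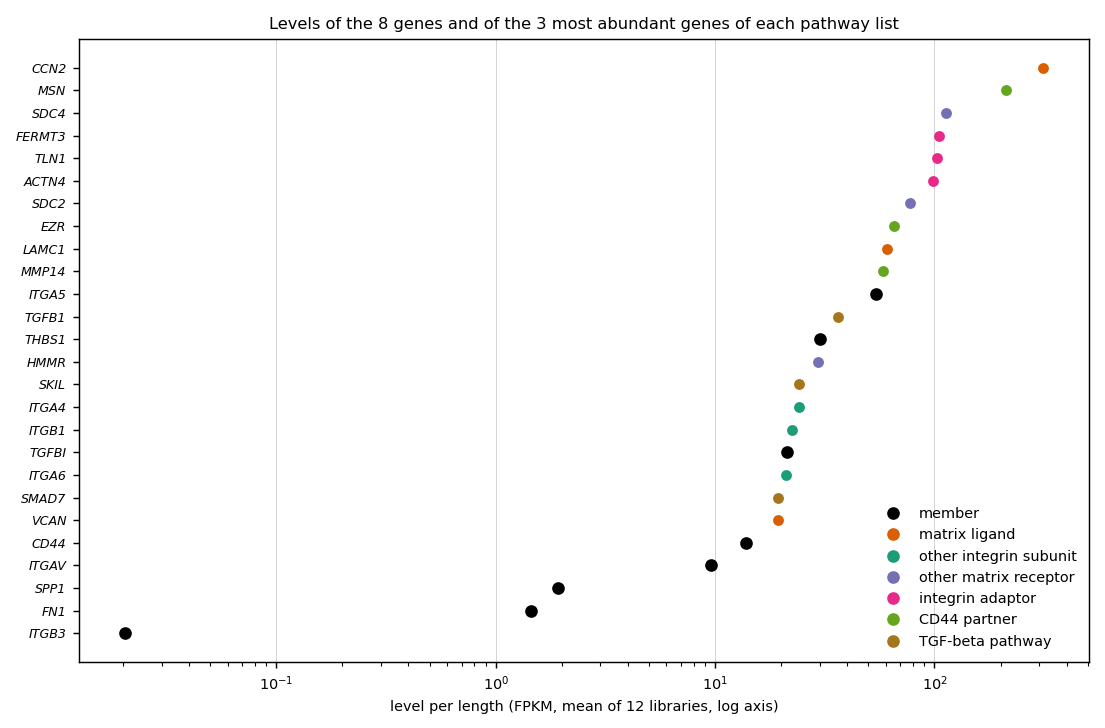
Mean level per joined exon length over the 12 libraries (FPKM, log axis) of the 8 genes (black) and of the 3 most abundant genes of each of 6 related lists (colours). ITGA5 and THBS1 lie among the abundant list genes, SPP1 and FN1 near 1 to 2 FPKM and ITGB3 near 0.02 FPKM.

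The genes around these 8 in the same system were taken from 6 lists of 111 genes, of which 102 were tested. They hold matrix ligands, other integrin subunits, other matrix receptors, integrin adaptors, CD44 partners and TGF-beta pathway genes. EdgeR called 0 of the 102 in each of the 6 comparisons, higher or lower. At an unadjusted p under 0.05, 7 were higher and 5 lower with control ECs against mono-culture, 8 and 7 with senECs, and 11 and 2 with EGCG-treated senECs, beside 6.52%, 11.0% and 8.58% of all genes tested in either direction. Their median log2 fold changes were -0.03, 0.01 and 0.04, beside 0.01, -0.02 and 0.00 over all genes. Of the other comparisons, senECs against control ECs had 1 higher and 2 lower, EGCG-treated senECs against senECs had 0, and EGCG-treated senECs against control ECs had 1 higher and 0 lower. The shares of all genes tested, in either direction, were 6.61%, 2.22% and 4.55% in that order.

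DESeq2 called 1, 2 and 1 list genes in the same 3 comparisons, beside 0.464%, 1.34% and 0.889% of all genes, and 0 in the others. These are named after their values were seen. ITGA4, which pairs with ITGB1 to bind VCAM1 and fibronectin, was at 166 ± 9.84 CPM in mono-culture and 217 ± 13.8 with control ECs, without overlap (log2 fold change 0.39, SE 0.11, edgeR adjusted p 0.270). ITGA7, a laminin-binding subunit, was at 14.4 ± 3.67 CPM in mono-culture, 25.5 ± 2.42 with senECs (0.83, SE 0.20, edgeR adjusted p 0.0858) and 26.5 ± 5.38 with EGCG-treated senECs (0.88, SE 0.20, edgeR adjusted p 0.0843). LAMB1, a laminin chain, was at 8.00 ± 0.475 CPM in mono-culture and 13.3 ± 2.22 with senECs (0.73, SE 0.20, edgeR adjusted p 0.150). Their fitted levels were also above mono-culture in the co-cultures that DESeq2 did not call. ITGA4 had a log2 fold change of 0.13 (SE 0.11) with senECs and 0.23 (SE 0.11) with EGCG-treated senECs. ITGA7 had 0.64 (SE 0.20) with control ECs. LAMB1 had 0.44 (SE 0.20) with control ECs and 0.51 (SE 0.20) with EGCG-treated senECs. Of these, only ITGA4 with EGCG-treated senECs and LAMB1 with control ECs were without overlap. None of these genes passed the test of edgeR.

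The most abundant matrix ligands were CCN2 (connective tissue growth factor, 314 FPKM), LAMC1 (60.7) and VCAN (19.3). Among other integrin subunits they were ITGA4 (24.0 FPKM), ITGB1 (22.5) and ITGA6 (21.1), and among other receptors SDC4 (113), SDC2 (77.7) and HMMR (29.5). FERMT3 (105), TLN1 (102) and ACTN4 (98.0), which tie integrins to actin, led the adaptors. MSN (213), EZR (65.4) and MMP14 (58.4) led the CD44 partners, and TGFB1 (36.3), SKIL (24.2) and SMAD7 (19.4) the TGF-beta pathway.

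To check the labelled cell type, markers of endothelium were summed over a list of 18 genes. The sum was 25.6 to 31.8 CPM in mono-culture, where no ECs were present, 28.8 to 31.6 with control ECs, 29 to 38.4 with senECs and 29.4 to 34.0 with EGCG-treated senECs. Most of it was EGFL7 and NOS3, without which the ranges were 3.61 to 6.5, 3.26 to 7.21, 4.11 to 4.80 and 3.17 to 6.80 CPM. CDH5, the cadherin that defines endothelium, had at most 1 count in any library. A list of 13 monocyte markers summed to 1172 to 1404 CPM in mono-culture, 1237 to 1430 with control ECs, 1268 to 1633 with senECs and 1324 to 1542 with EGCG-treated senECs. Of these, CD14 was called higher with senECs than in mono-culture (38.2 ± 25.1 against 8.92 ± 2.67 CPM, log2 fold change 2.09, SE 0.42, edgeR adjusted p 0.0363). In the same comparison the groups did not overlap for SPP1, which was lower, and for FN1, THBS1 and ITGA5, which were higher. Such groups were found for 8.5% of all genes tested in the lower direction and 8.18% in the higher. SPP1 and FN1 were chosen on these values, so no link with CD14 is read from them. The part of CD14-linked cell state in the levels of SPP1, FN1, THBS1 and ITGA5 was not tested.

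The genes most like SPP1 over the 12 libraries, by Pearson r of log2(CPM + 2) among 14397 genes, were PUS10 (0.96), BAIAP2L2 (0.95), UBA7 (0.94), TRANK1 (0.91) and METTL7A (0.89). UBA7, for example, had a mean of 64.2 CPM in mono-culture and 47.2, 45.7 and 47.9 CPM in the 3 co-cultures. The genes most like FN1 were SIGLEC10 (0.96), EDC3 (0.93), PRKACA (0.92), LINC01299 (0.88) and ZDHHC16 (0.88). SIGLEC10 had means of 7.49 and 8.23 CPM in mono-culture and with control ECs, and 12.3 and 12.5 CPM with senECs and EGCG-treated senECs. These genes were picked by their likeness, so their levels are descriptions.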

How the data were processed

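RNA sequencing of THP1 cells gave 1 table of counts per gene for the whole series. The submitters' processing notes name HISAT2, an aligner, and hg38, and the values deposited are raw counts of reads for each gene symbol; the version of HISAT2, the annotation used for counting and whether strand was used are not given in the sources used here. Groups came from the sample labels. 4 columns of the table match no sample described here and were not used. Of 58735 rows, 23968 had no count in the 12 libraries.

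Genes whose counts over the 12 libraries summed to 10 or more (25873) were fitted with edgeR 4.0.16 (R 4.3.3; TMM factors, quasi-likelihood test, 1 term per culture, all 12 libraries in 1 fit), and p-values were adjusted over all of them by the Benjamini-Hochberg method at 0.05. DESeq2 1.42.0, its size factors, other filters, the 6 libraries of a comparison alone, replicate number as a block and leaving out each library were alternatives. The edgeR fit was tested on simulated counts with 200 planted 2-fold changes in control ECs against mono-culture. It recovered 147 of these, all in the right direction, with 11 false calls, so changes of that size can be missed. The planted genes had a mean of at least 1 CPM, and smaller changes were not tried. The simulated libraries held no effect of library number. An exact permutation test of 3 against 3 libraries cannot go below p = 0.1 and was not used. FPKM used exon lengths of GENCODE release 29, in which all 57169 symbols matched. Counts of 3 set the floor, with intervals for counting error only.

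The 8 genes and all lists were chosen with earlier results of these data known. The genes named were the 8, every list gene called by edgeR (up to 4 per list and comparison), the 3 most abundant genes per list, and the 5 genes most like SPP1 and FN1; others are named as chosen after their values were seen.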

Additional observations from a re-analysis of the deposited data

How the results depend on the processing

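Under every alternative fitted, leaving out each library included, SPP1 stayed lower in the 3 co-cultures than in mono-culture, and THBS1 higher. FN1 and ITGA5 likewise stayed higher with both senEC types than in mono-culture and with control ECs. As SPP1 and FN1 were chosen on these shifts and the ITGA5 pattern was named after its values were seen, this describes the fits and tests nothing for these 3 genes. Counts of genes called are given in the order control ECs, senECs and EGCG-treated senECs against mono-culture, then senECs against control ECs, EGCG-treated senECs against senECs and against control ECs. DESeq2 called 120, 347, 230, 0, 0 and 0 genes in place of 37, 80, 55, 0, 0 and 0; testing every gene with a count called 223, 588, 377, 114, 14 and 43. The 6 libraries of a comparison alone called 68 with control ECs and 109 with EGCG-treated senECs, where a minimum of 10 counts in every library called 36. Leaving out 1 library gave 11 to 48, 22 to 260, 12 to 104, 0 to 1, 0 and 0 to 1; the lowest 3 came without mono-culture library 2, and 260 without senEC library 1. Of the 6 members without selection on values, testing every gene called 1 (THBS1), 2 (with CD44) and 3 (with ITGA5) against mono-culture, the 6 libraries alone 1, 1 and 1 (THBS1), DESeq2 1 with EGCG-treated senECs (ITGA5), and leaving out 1 library 0 to 1 with either senEC type. Of the list genes, DESeq2 called 1, 2 and 1, testing every gene 4, 8 and 6, the 6 libraries alone 1 with EGCG-treated senECs, and leaving out 1 library 0 to 1 with either senEC type. The cause of these shifts was not tested.

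The replicate block gave 469, 709, 424, 153, 13 and 34 genes called, 1 (THBS1), 3 and 3 members (THBS1, CD44, ITGA5) and 7, 7 and 5 list genes in the first 3 comparisons. With replicates 3 and 5 joined in the block these were 400, 1407, 782, 268, 1 and 60 genes, 1, 3 and 3 members and 1 (ITGA5) in the last comparison, and 7, 12, 7 and 1 list genes in the first 4. Same-numbered libraries of 2 cultures had correlations of their deviations from 0.0351 to 0.472 (14 pairs), all above 0. Other pairs ran from -0.450 to 0.437 (40 pairs). The highest of these joined number 3 with number 5. They were 0.271 and 0.335 for mono-culture with senECs and with EGCG-treated senECs, and 0.437 and 0.369 for control ECs with the same 2. Deviations thus partly followed the numbers. Between mono-culture and control ECs the lowest same-number value was 0.0926 and between senECs and EGCG-treated senECs 0.0533. No label says that the numbers pair the libraries, so the block was kept as an alternative. Whether the numbers are a pairing was not tested, and a call gained with the block is not read as a larger effect.

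THBS1 in senECs against control ECs, 0.00, was -0.0075 with DESeq2, -0.0075 with its size factors, -0.025 with at least 10 counts in every library, -0.0096 with edgeR's own filter, -0.0083 in the 6 libraries alone and -0.078 with the replicate block. TGFBI in senECs against mono-culture was -0.056 with the replicate block. Leaving out 1 library gave, against mono-culture, -0.26 to 0.38 for CD44 and -0.27 to 0.0081 for ITGAV with control ECs, and -0.28 to 0.31 and -0.26 to 0.085 for TGFBI with senECs and EGCG-treated senECs. In senECs against control ECs it gave -0.22 to 0.24 for THBS1, -0.049 to 0.53 for TGFBI and -0.20 to 0.035 for ITGAV. In EGCG-treated senECs against senECs it gave -0.38 to 0.20 for THBS1, -0.39 to 0.23 for TGFBI, -0.31 to 0.27 for CD44 and -0.16 to 0.12 for ITGAV, and against control ECs -0.38 to 0.21, -0.032 to 0.36, -0.026 to 0.66 and -0.28 to 0.060 for these 4 genes. With EGCG-treated senECs, SPP1 ran from -0.0051 to 0.62 against senECs and from -0.23 to 0.41 against control ECs, and FN1 from -0.056 to 0.19 against senECs. Depth limits ITGB3, at 0 to 7 counts, and to a lesser degree SPP1, at 40 to 187.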
